A study of Homo sapiens with 12 samples.

Results

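Expression of 38 genes of the lysosome and of autophagy was examined in MV4-11 cells, a human acute myeloid leukemia line that carries an internal tandem duplication of the receptor tyrosine kinase FLT3. The genes were taken by symbol from a list of known lysosomal and autophagic functions, with no measured value in the rule. The list was nevertheless chosen with earlier results of these data known. All 38 genes were found among the 43876 Ensembl identifiers of the table. They comprised 14 hydrolases, 3 lumenal cofactors, 6 membrane proteins, 3 transcription factors, 5 genes of the proton pump and 7 autophagy genes. RNA-seq was performed on 12 libraries, 3 for each of 4 conditions, and the values are FPKM, fragments per kilobase of transcript scaled to the size of the library. The DMSO cells received vehicle, the Mitoxantrone cells 20 nM mitoxantrone, the Gilteritinib cells 25 nM gilteritinib, and the Combination cells 20 nM of each drug, for 24 h in each case. Mitoxantrone is a topoisomerase II inhibitor, for which the study's text names a liposomal form where the labels name mitoxantrone, and gilteritinib is an inhibitor of FLT3. The genotype is labelled Wild-type in every condition, and 1 cell line was used. The labels give replicate numbers but do not say whether the libraries came from separate cultures, so p-values measure the spread between these libraries, which may be technical. Values in a row below are in the order of replicates 1, 2 and 3.

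The lysosome is the acidic organelle in which proteins, lipids, glycans and nucleic acids are degraded by acid hydrolases, some of which need lumenal cofactors that present their lipid substrates. The V-ATPase pumps protons into the lumen, and heavily glycosylated membrane proteins line and protect the limiting membrane. Macroautophagy encloses cytoplasm in an autophagosome that fuses with the lysosome. TFEB, TFE3 and MITF are related transcription factors that bind an E-box of the letters CACGTG in the promoters of many lysosomal genes, the so-called CLEAR element.

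The 12 libraries held about 31700000 to 41300000 fragments each, as recovered from the steps between the lowest FPKM values, and a member with a median above 1 FPKM was backed by at least 169.3 fragments in each library, so that counting error was at most 7.69% of its value there. Replicate 1 stood apart in each condition. Over the 14421 genes at 1 FPKM or more in every library, the typical squared difference between replicate 1 and another replicate of the same condition was 15.1 to 28.3 times that of counting alone, against 2.76 to 7.64 times between replicates 2 and 3. Results are therefore also given for replicates 2 and 3 only. That choice was made from these same values, so p-values from replicates 2 and 3 alone may be too small throughout. The myeloid markers FLT3, at 131.7 to 170.7 FPKM, SPI1, CEBPA, CD33, HOXA9 and MEIS1 were expressed in every library, whereas CD3D, CD3E, MS4A1, EPCAM, KRT19 and COL1A1, which mark T cells, B cells, epithelial and stromal cells, stayed at or below 0.0894 FPKM.

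Promoter sequences are shown for the members that hold the E-box, since the 3 transcription factors that recognize it are members themselves. RefSeq windows on GRCh38.p14, from 250 bases before to 50 after the transcript start and the first one listed for a gene, were available for 30 of the 38 genes. The letters CACGTG, which read the same on both strands, occurred in 8 of these 30 windows, or 26.7%, against 7.43% of 27305 windows over all genes. The longer form TCACGTG, which contains the core and reads CACGTGA on the other strand, occurred in 7 of the 30, against 3.82% of all windows. A match is a description of letters and not a binding site. The core is in capitals below, each stretch is written 5′ to 3′ on the gene's strand, and 4 of the 6 copies of LAMP1 are shown. The 8 genes are CTSA at chr20:45891281-45891327 (+), CTSD at chr11:1763957-1763986 (-), GAA at chr17:80101493-80101567 (+), NEU1 at chr6:31862930-31862959 (-), LAMP1 at chr13:113297035-113297114 (+), CD63 at chr12:55729172-55729201 (-), MCOLN1 at chr19:7522571-7522627 (+) and ATP6V0D1 at chr16:67481199-67481228 (-).
CTSA: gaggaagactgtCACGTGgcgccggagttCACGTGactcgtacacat
CTSD: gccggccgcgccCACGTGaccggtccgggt
GAA: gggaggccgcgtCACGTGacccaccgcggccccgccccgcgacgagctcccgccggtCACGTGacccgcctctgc
NEU1: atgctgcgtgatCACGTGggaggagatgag
LAMP1: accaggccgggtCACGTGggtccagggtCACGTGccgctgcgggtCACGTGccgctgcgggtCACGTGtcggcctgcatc
CD63: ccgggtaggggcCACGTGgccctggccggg
MCOLN1: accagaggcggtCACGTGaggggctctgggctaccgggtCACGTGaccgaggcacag
ATP6V0D1: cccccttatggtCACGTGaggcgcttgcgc

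The E-box was found in hydrolases, membrane proteins and the pump. In none of the 12 lumenal cofactor, transcription factor and autophagy genes with a window were these letters present. The genes with no window were CTSB, CTSS, HEXA, PSAP, LAMP2, ATP6V1A, ATP6V1B2 and ATP6V1H.

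Most of the 38 genes were expressed at moderate to high levels, and 35 of them reached 1 FPKM in at least 3 libraries and were tested. The median of the members' median levels was 11.8 FPKM, against 4.95 FPKM over the 18574 genes tested. The membrane proteins CD63, a tetraspanin, and LAMP2, which also serves chaperone-mediated autophagy, led with medians of 58.3 and 57.9 FPKM, and their libraries overlapped. GUSB, the β-glucuronidase, followed at 44.3 FPKM and ATP6V1B2, a subunit of the pump's catalytic sector, at 40.5 FPKM. PSAP, the precursor of the saposins that activate sphingolipid hydrolases, and the dipeptidyl peptidase CTSC had nearly equal medians of 36.8 and 36.6 FPKM. The medians of the 5 pump genes, at 17.7 to 40.5 FPKM, lay above those of the 7 autophagy genes, at 0.833 to 16.6 FPKM, of which MAP1LC3B (LC3B, the lipidated marker of autophagosomes) was the highest and its relative GABARAPL1 the lowest.

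The 3 genes that were not tested reached 1 FPKM in 0 of the 12 libraries. The cysteine protease CTSL ranged from 0.101 to 0.341 FPKM, which corresponds to 8.25 to 28.3 fragments. MITF, best known from melanocytes, ranged from 0.225 to 0.474 FPKM, while its relatives TFE3 and TFEB had medians of 6.47 and 4.23 FPKM. The sialidase NEU1 was listed at 0 to 0.0313 FPKM, at most 5.23 fragments. TFE3 and TFEB were thus the members of the family tested here.

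With mitoxantrone alone, many of these genes stood slightly above vehicle and none stood clearly below it. The Mitoxantrone and DMSO libraries did not overlap for 17 of the 38 genes, and in each of the 17 the Mitoxantrone libraries were the higher, against 7.68% of all tested genes not overlapping and higher and 5.9% not overlapping and lower. The differences were small. The median over the 35 tested members was 0.22 on the log2(FPKM + 1) scale, against 0.03 over all genes tested, and 31 of the 35 were above 0. In limma with Benjamini-Hochberg adjustment, 0 of the 35 members passed an adjusted p of 0.05, as did 0% of all genes. At an unadjusted p under 0.05, 16 members were higher and 0 lower, against 4.95% and 2.94% of all genes. The 35 members include GABARAPL1, which would not have been tested without the Mitoxantrone libraries. When DMSO replicate 1 or Mitoxantrone replicate 1 was left out, the 16 became 10, against 5.43% and 5.71% of all genes higher in those fits. With the replicate number as a block, 17 members were higher and 0 lower at that p, against 9.45% and 6.46% of all genes.

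**Figure D1:**
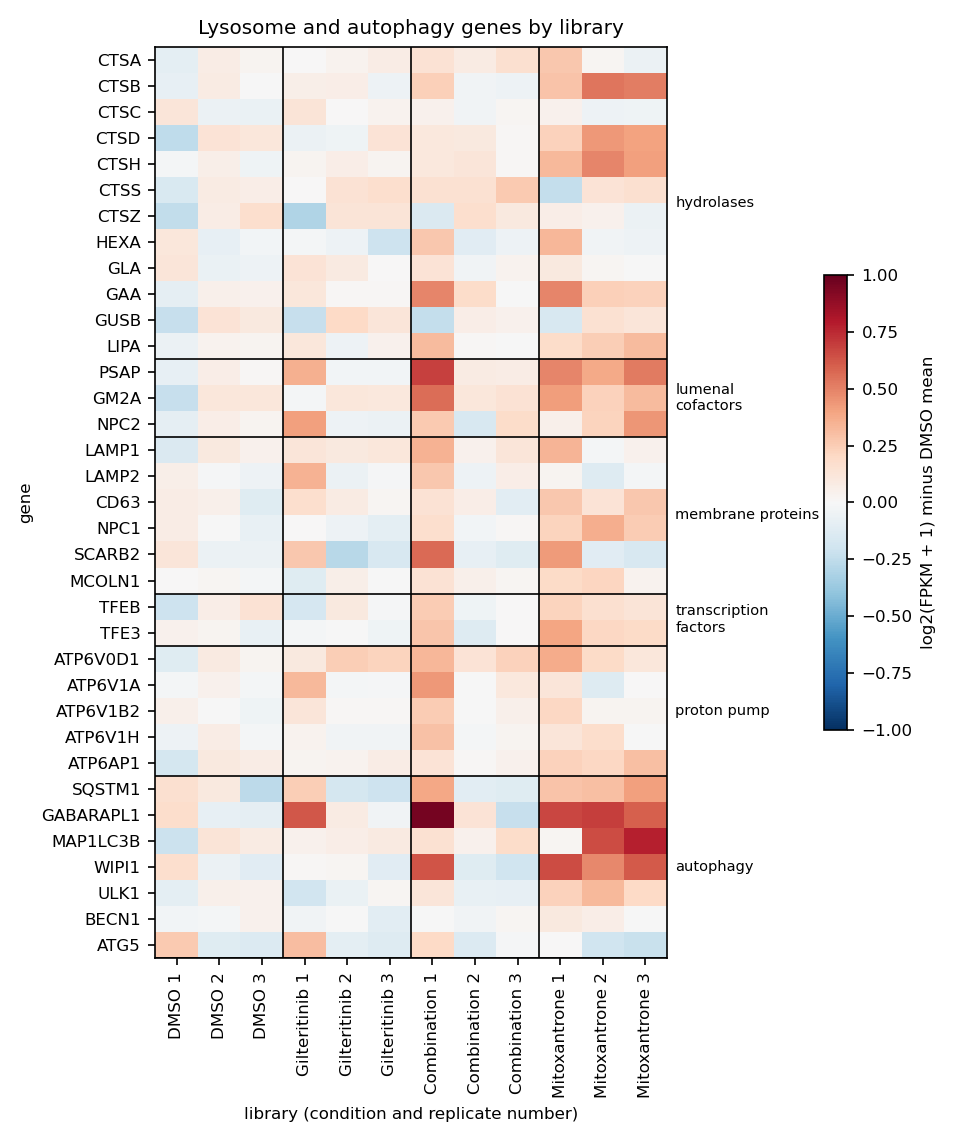
Each cell is the log2(FPKM + 1) of 1 of the 35 tested genes (rows, by function) in 1 library (columns, by condition and replicate number), minus the mean of the 3 DMSO libraries, from blue (lower) to red (higher). Red prevails in the 3 Mitoxantrone columns and in Combination 1, while Combination 2 and 3 and Gilteritinib 2 and 3 are pale.

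Among the hydrolases, 5 of 14 had Mitoxantrone libraries wholly above DMSO. CTSB, cathepsin B, a cysteine protease encoded on chromosome 8 (GRCh38, 11842524 to 11869448, minus strand), stood at 21.9, 26.1 and 25.7 FPKM with mitoxantrone and at 16.7, 18.8 and 17.7 FPKM with DMSO. Its lowest Mitoxantrone library, replicate 1, exceeded its highest DMSO library. The means were 24.6 ± 2.32 and 17.7 ± 1.04 FPKM (SD, n = 3), a ratio of 1.38 and a log2 difference of 0.44 with a standard error of 0.10 (limma adjusted p = 0.397). CTSH, the aminopeptidase cathepsin H on chromosome 15 (78921058 to 78949574, minus strand), had 3.48, 4.04 and 3.75 FPKM with mitoxantrone and 2.54, 2.72 and 2.48 FPKM with DMSO. The groups were widely separated for their spread, with a log2 difference of 0.41, a standard error of 0.09 and a limma adjusted p of 0.397.

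The aspartic protease CTSD, cathepsin D, had 12.9, 15.02 and 14.6 FPKM with mitoxantrone against 8.94, 12.03 and 11.8 FPKM with DMSO. For GAA, the α-glucosidase that degrades glycogen, the values were 12.7, 10.5 and 10.4 FPKM against 8.18, 9.11 and 9.05 FPKM. LIPA, the acid lipase that hydrolyses cholesteryl esters and triglycerides, was measured at 34.0, 35.5 and 37.3 FPKM against 28.5, 30.5 and 30.3 FPKM. In all 3 of these genes DMSO replicate 1 was the lowest DMSO library. The other hydrolases overlapped between mitoxantrone and vehicle. The protective protein CTSA ranged from 9.20 to 12.2 FPKM over the 12 libraries, CTSC from 34.7 to 39.7 FPKM, the endopeptidase CTSS from 8.84 to 13.0 FPKM and the carboxypeptidase CTSZ from 7.75 to 11.1 FPKM. HEXA, the α subunit of β-hexosaminidase, ranged from 4.12 to 6.46 FPKM, the α-galactosidase GLA from 18.8 to 21.8 FPKM and GUSB from 35.3 to 48.0 FPKM. The median over the 12 tested hydrolases was 0.08 on the log2 scale, so that the proteases CTSB, CTSD and CTSH, LIPA and GAA stood apart from a majority near vehicle level.

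**Figure D2:**
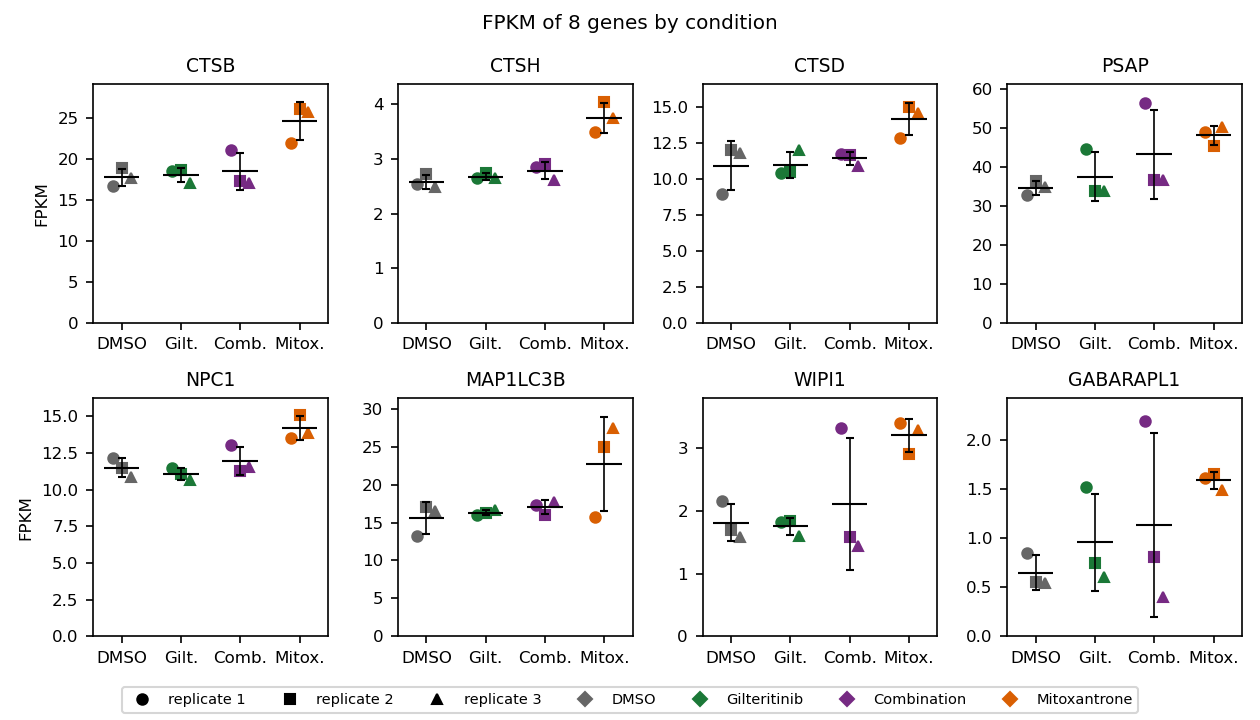
FPKM (vertical axes, from 0) of 8 genes in the 4 conditions, with 1 symbol per library shaped by replicate number, a line at the mean of 3 libraries and error bars of 1 SD. For CTSB, CTSH, CTSD and NPC1 the 3 Mitoxantrone libraries lie above every library of the other conditions, whereas for PSAP, WIPI1 and GABARAPL1 Combination replicate 1 reaches the Mitoxantrone level, and for MAP1LC3B Mitoxantrone replicate 1 lies among the other conditions.

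Of the lumenal cofactors, PSAP and GM2A did not overlap. PSAP had 49.0, 45.5 and 50.2 FPKM with mitoxantrone and 32.8, 36.4 and 35.03 FPKM with DMSO, and GM2A, the activator that presents GM2 ganglioside to β-hexosaminidase, had 42.2, 37.0 and 39.3 against 26.7, 34.0 and 34.0 FPKM. Their lowest Mitoxantrone library was replicate 2 in each case. NPC2, which hands cholesterol to NPC1, overlapped, with 11.2, 12.7 and 15.04 against 10.0, 11.3 and 11.0 FPKM.

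Of the 6 membrane proteins, CD63, NPC1 and MCOLN1 did not overlap. NPC1, the cholesterol exporter of the limiting membrane, encoded on chromosome 18 (23506184 to 23586898, minus strand), had 13.6, 15.1 and 13.9 FPKM with mitoxantrone and 12.2, 11.5 and 10.9 FPKM with DMSO. Its means of 14.2 ± 0.821 and 11.5 ± 0.636 FPKM (SD, n = 3) differed by 0.28 on the log2 scale, with a standard error of 0.08 and a limma adjusted p of 0.492. CD63 was at 66.8, 60.8 and 66.6 FPKM against 58.1, 57.3 and 50.6 FPKM, and the calcium channel MCOLN1 at 6.26, 6.39 and 5.52 FPKM against 5.37, 5.46 and 5.26 FPKM, a narrow gap. The classical membrane glycoproteins were close to vehicle. LAMP1 had 33.5, 25.8 and 27.0 FPKM against 23.6, 28.1 and 27.0 FPKM, and LAMP2 had 59.6, 53.3 and 57.5 FPKM against 61.0, 57.8 and 56.5 FPKM. SCARB2, the receptor that carries glucocerebrosidase to the lysosome, was at 8.56, 5.57 and 5.35 FPKM against 6.73, 5.82 and 5.81 FPKM, with replicate 1 the high library in both conditions.

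Of the transcription factors, TFE3 did not overlap, with 8.72, 7.53 and 7.46 FPKM against 6.63, 6.53 and 6.04 FPKM. TFEB had 4.77, 4.55 and 4.41 FPKM against 3.29, 4.18 and 4.47 FPKM and overlapped through a single DMSO library. For the proton pump, ATP6V0D1, a subunit of the membrane sector, was at 27.2, 24.0 and 22.7 FPKM against 19.2, 22.3 and 21.3 FPKM, and the accessory protein ATP6AP1 at 21.3, 20.9 and 22.3 FPKM against 15.8, 19.3 and 19.0 FPKM. The members of the cytosolic V1 sector lay closer to vehicle, with ATP6V1A at 24.8, 20.6 and 22.7 FPKM against 22.3, 23.3 and 22.3 FPKM. ATP6V1B2 ranged from 38.5 to 47.7 FPKM and ATP6V1H from 16.9 to 21.7 FPKM over the 12 libraries, and the groups overlapped for both.

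Of the 7 autophagy genes, 4 had Mitoxantrone libraries wholly above DMSO. WIPI1, which binds phosphoinositides on the forming autophagosome, had 3.40, 2.91 and 3.29 FPKM with mitoxantrone and 2.15, 1.70 and 1.59 FPKM with DMSO. GABARAPL1 had 1.62, 1.66 and 1.49 FPKM against 0.855, 0.551 and 0.547 FPKM, the widest of the log2 differences among the 35 members. It reached 1 FPKM in 5 libraries, 3 of them Mitoxantrone, so it entered the test through the condition in which it was high. ULK1, the kinase that starts autophagy, had 5.47, 5.91 and 5.31 FPKM against 4.17, 4.71 and 4.68 FPKM, and the cargo receptor SQSTM1 (p62) had 2.45, 2.49 and 2.77 FPKM against 2.18, 2.04 and 1.37 FPKM. MAP1LC3B was at 15.7, 25.0 and 27.4 FPKM against 13.3, 17.1 and 16.5 FPKM. Its Mitoxantrone replicates 2 and 3 were above every other library of the series, while Mitoxantrone replicate 1 lay within the DMSO range. BECN1, a subunit of the class III phosphatidylinositol kinase complex, ranged from 11.5 to 13.4 FPKM over the 12 libraries, the narrowest relative range of the group, and ATG5, part of the LC3 conjugation machinery, had 17.2, 14.7 and 14.5 FPKM against 20.7, 15.6 and 15.4 FPKM.

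By function, the median log2 difference between mitoxantrone and vehicle was 0.33 for the 7 autophagy genes and 0.32 for the 3 lumenal cofactors, 0.22 for the 2 tested transcription factors, 0.14 for the 6 membrane proteins, 0.10 for the 5 pump genes and 0.08 for the 12 tested hydrolases. This order did not carry over to the other genes of the pathway listed under the same functions, whose medians were 0.13 for 28 hydrolases, 0.09 for 18 membrane proteins, 0.04 for 12 pump genes and 0.03 for 33 autophagy genes. The order of the functions was not tested, since genes are not replicates. The median of the members' autophagy genes includes GABARAPL1, which was tested through the condition in which it was high. Of the 8 genes with an E-box in the window, 5 did not overlap between mitoxantrone and vehicle, namely CTSD, GAA, CD63, MCOLN1 and ATP6V0D1, and of the 22 genes with a window but no E-box, 10 did not overlap. Genes with and without the letters thus occurred among those that overlapped and those that did not.

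**Figure D3:**
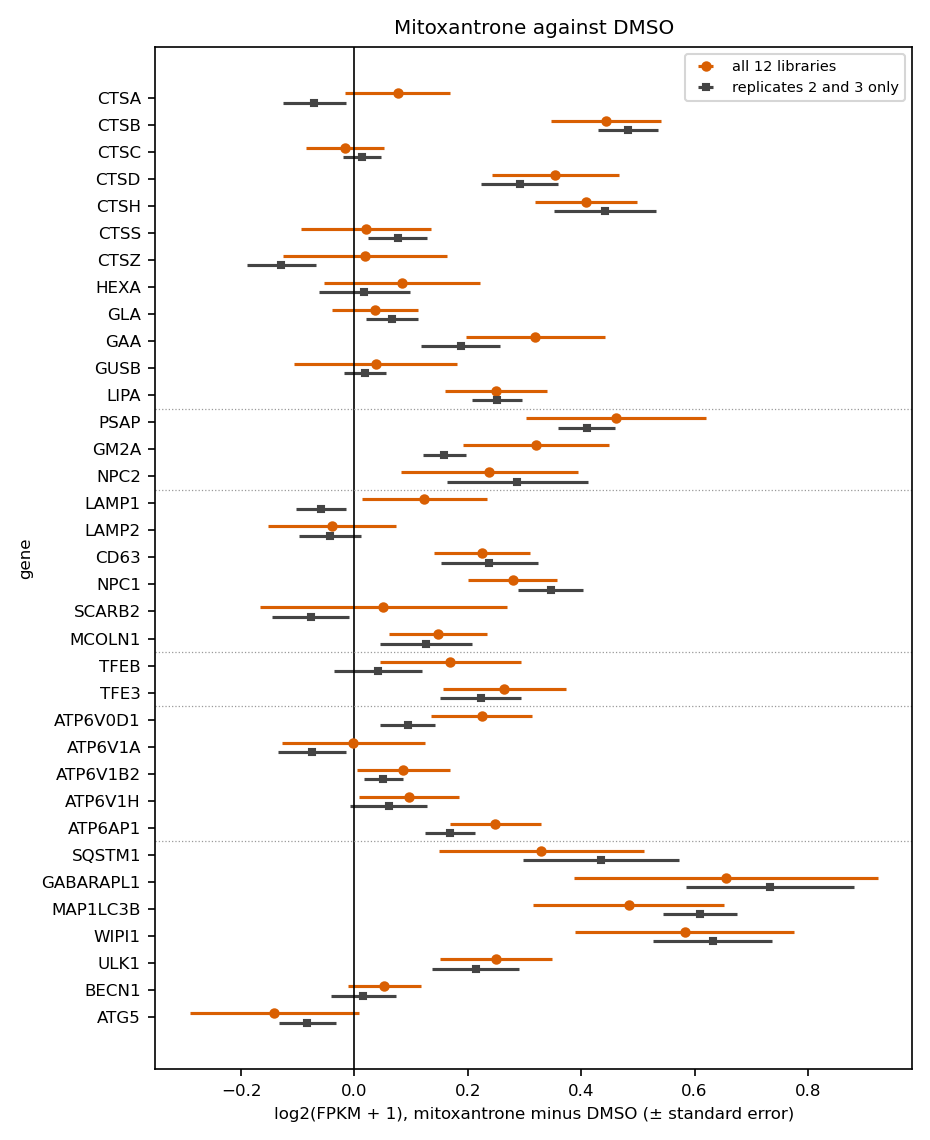
Difference in log2(FPKM + 1) between mitoxantrone and DMSO (horizontal axis) for the 35 tested genes, with error bars of 1 standard error, from the fit to all 12 libraries (circles) and to replicates 2 and 3 only (squares). Dotted lines divide the functions. Most points lie right of 0, the autophagy genes GABARAPL1, WIPI1 and MAP1LC3B farthest, and the bars are mostly shorter for replicates 2 and 3.

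When replicates 2 and 3 were fitted alone, 8 members rose with mitoxantrone at a limma adjusted p under 0.05 and 0 fell. Over all genes, 3.09% rose and 3.32% fell in that fit, so its calls over the genome were about even in direction. The 8 were CTSB, CTSH and LIPA among the hydrolases, the cofactor PSAP, the membrane protein NPC1, and the autophagy genes GABARAPL1, MAP1LC3B and WIPI1. Of the libraries of replicates 2 and 3, GABARAPL1 reached 1 FPKM only in the Mitoxantrone ones, so its call rests on a gene that was in the fit through that condition. No member of the pump and neither tested transcription factor was called. The adjusted p from limma was lowest for MAP1LC3B, at 0.00582 with a log2 difference of 0.61, and for CTSB, at 0.00655 with a log2 difference of 0.48. This fit had 2 libraries in each condition, with a smaller spread between them as given above. The 2 replicate numbers were kept because that spread was seen to be small in these data. Its p-values may therefore be too small, and with all 12 libraries 0 of the 35 members passed. When Mitoxantrone replicate 1 alone was left out, 1 member was called, against 0.178% of all genes higher and 0.0162% lower. It was MAP1LC3B, with a log2 difference of 0.72 (limma adjusted p = 0.0363). The library left out is the Mitoxantrone library in which MAP1LC3B lay within the DMSO range. The fit to replicates 2 and 3 lacks that library too, so this call is not separate support.

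Compared within replicate numbers, the median of the 35 members was above DMSO in all 3 Mitoxantrone libraries, by 0.25, 0.10 and 0.10 on the log2 scale, with 30, 28 and 28 genes higher. The corresponding medians of all tested genes were 0.04, 0.06 and -0.03. Autophagy genes had medians of 0.23, 0.27 and 0.67, while membrane proteins had 0.19, 0.01 and 0.04. The membrane proteins thus stood above DMSO mainly in replicate 1 and the autophagy genes in each number. The autophagy medians include GABARAPL1, at 0.50, 0.78 and 0.69, which was tested through the condition in which it was high. They therefore rest in part on a gene selected by that condition.

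**Figure D4:**
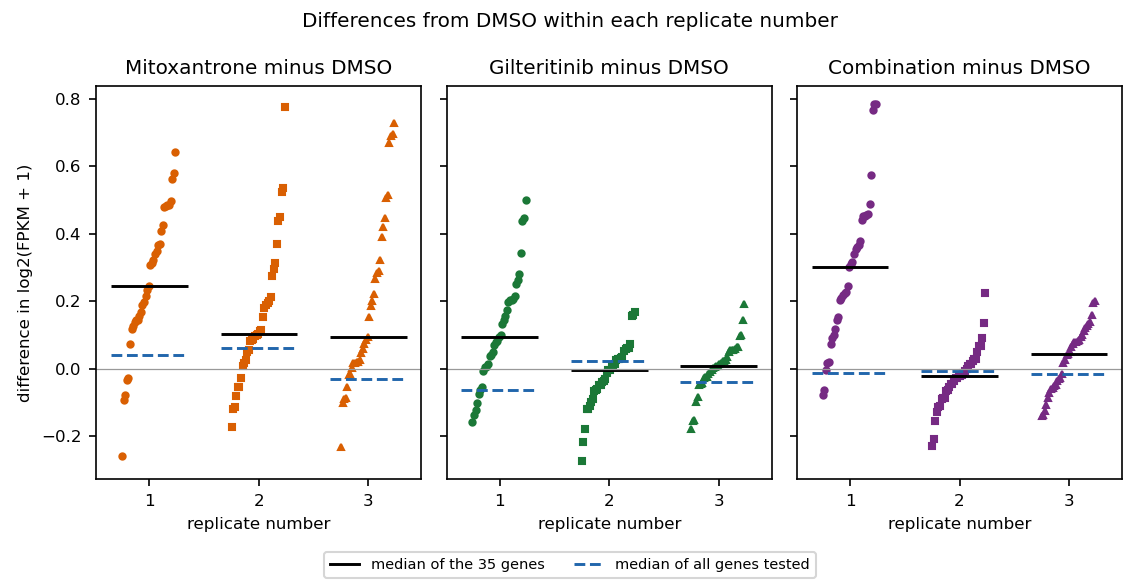
Difference in log2(FPKM + 1) from the DMSO library of the same replicate number (vertical axes) for the 35 tested genes in each drug condition, 1 point per gene, sorted by size within a number. Solid lines are medians of the 35 genes and dashed lines medians of all tested genes. With mitoxantrone the solid line lies above the dashed line in each number, and with the Combination it lies at 0.30 in replicate 1 but at -0.02 and 0.05 in replicates 2 and 3.

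Of the markers of other states, ITGAM and PECAM1 were above every DMSO library in Mitoxantrone replicates 2 and 3. Both lay within the DMSO range in Mitoxantrone replicate 1, and no test is given for them. Of the other myeloid markers named here, CD33 and MEIS1 were above every DMSO library in each Mitoxantrone library. FLT3, SPI1, CEBPA, HOXA9 and lysozyme overlapped with vehicle. The integrin ITGAM, a marker of myeloid maturation, was listed at 1.28, 4.82 and 4.59 FPKM with mitoxantrone against 0.503, 1.80 and 1.73 FPKM with DMSO. The summed level of 10 markers of other cell types ranged from 13.7 to 29.1 FPKM with mitoxantrone and from 11.6 to 17.6 FPKM with DMSO, most of it PECAM1, at 9.75, 25.1 and 24.8 against 9.17, 14.1 and 14.4 FPKM. The sum of the 10 myeloid markers, dominated by lysozyme, ranged from 928.7 to 1374 FPKM with mitoxantrone and from 942.7 to 1080 FPKM with DMSO. Their part in the differences of the lysosomal genes was not tested. In bulk RNA, a changed share of cells in some state and a changed amount of RNA per cell cannot be told apart.

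Of the other genes of the pathway, 117 of 118 listed were matched and 106 tested. Their median log2 difference between mitoxantrone and vehicle was 0.05, 10 had an unadjusted p under 0.05 and were higher and 0 were lower, against the 4.95% and 2.94% of all genes given above, and 0 passed an adjusted p of 0.05 in limma. With the replicate number as a block, 13 were higher and 3 lower at the unadjusted p, against 9.45% and 6.46% of all genes. In replicates 2 and 3 alone, 8 were higher and 3 lower at an adjusted p under 0.05, against 3.09% and 3.32% of all genes. ATP6V0A1, the large proton-conducting subunit of the pump's membrane sector, had means of 9.80 ± 1.19 FPKM with mitoxantrone and 5.81 ± 0.528 FPKM with DMSO (SD, n = 3), a log2 difference of 0.66 with a standard error of 0.14 (limma adjusted p = 0.397). VMP1, a lipid scramblase needed for autophagosome formation, had 47.3 ± 0.235 and 37.9 ± 1.83 FPKM, a log2 difference of 0.32 with a standard error of 0.07 (limma adjusted p = 0.397). Both exceeded vehicle in every library, and in replicates 2 and 3 alone they had limma adjusted p of 0.0108 and 0.0109.

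Gilteritinib alone left these genes near vehicle, with its replicate 1 somewhat above. Compared within replicate numbers, 27, 16 and 21 of the 35 members were above DMSO. Their medians were 0.09, -0.004 and 0.008 on the log2 scale, against -0.06, 0.02 and -0.04 over all tested genes. None of the 35 members was called in limma (0% of all genes), 0 had an unadjusted p under 0.05, against 0.565% of all genes higher and 1.3% lower, and the median log2 difference was 0.04. Libraries did not overlap for 1 gene, ATP6V0D1, against 2.18% of all genes not overlapping and higher and 4.4% lower. Its values were 22.4, 24.9 and 24.6 FPKM against 19.2, 22.3 and 21.3 FPKM with DMSO, and the lowest Gilteritinib library was barely above the highest of vehicle. The log2 difference of ATP6V0D1 was 0.19 with a standard error of 0.09 (limma adjusted p = 0.9999). CD63 and GLA had the next smallest p, with log2 differences of 0.09 and 0.08 and standard errors of 0.08 and 0.08, and their libraries overlapped with vehicle (limma adjusted p = 0.9999 for each). Of the other pathway genes, the LC3 relative GABARAP had 1.52 ± 0.326 FPKM with gilteritinib and 2.24 ± 0.0789 FPKM with DMSO (SD, n = 3), a log2 difference of -0.37 with a standard error of 0.13 (limma adjusted p = 0.9999).

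The Combination also differed little from vehicle, apart from its replicate 1. In the fit to all 12 libraries, 32 of the 35 members were above 0, with a median of 0.08 against -0.01 over all genes. Compared within replicate numbers, 32, 12 and 21 of the 35 were above DMSO. In limma 0 of the 35 members were called, against 0.00538% of all genes, and 1 had an unadjusted p under 0.05, again ATP6V0D1, against 0.829% of all genes higher and 0.84% lower at that p. With the replicate number as a block, 2 members were higher and 0 lower at that p, against 2.04% and 2.32% of all genes. Left out in turn, the libraries gave 0 to 3 such members, 0 without replicate 1 of the Combination or of DMSO, 2 without replicate 2 of the Combination or replicate 2 or 3 of DMSO, and 3 without Combination replicate 3. Of all genes, 0.506% to 1.45% were higher and 0.748% to 1.42% lower in these refits, with 0.991% higher without Combination replicate 3. ATP6V0D1 had 26.6, 23.1 and 24.7 FPKM with the Combination, each above the highest DMSO library, and a log2 difference of 0.23 with a standard error of 0.09 (limma adjusted p = 1). Libraries did not overlap for 4 genes, ATP6V0D1, PSAP, CTSS and CTSA, each higher with the Combination, against 2.57% of all genes higher and 3.16% lower. PSAP had 56.5, 36.8 and 36.7 FPKM with the Combination, so that replicate 1 was the highest library of the series and replicates 2 and 3 were just above the highest DMSO value of 36.4 FPKM. GM2A and GAA showed the same split, with 46.6, 34.0 and 34.7 FPKM and with 12.7, 10.1 and 8.73 FPKM. Their log2 differences from DMSO were 0.27 and 0.22, with standard errors of 0.13 and 0.12, and the groups overlapped. In replicates 2 and 3 alone, these differences were 0.01 and 0.04. Among the other pathway genes, LAPTM5, a lysosomal membrane protein of blood cells, had 189.0 ± 25.0 FPKM with the Combination and 152.6 ± 18.7 FPKM with DMSO, and the carboxypeptidase SCPEP1 had 13.6 ± 1.61 and 11.5 ± 0.362 FPKM (SD, n = 3). Their log2 differences were 0.31 and 0.21, with standard errors of 0.12 and 0.09 (limma adjusted p = 1 for each), and 0.10 and 0.11 in replicates 2 and 3 alone.

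Set against mitoxantrone alone, the Combination was lower for several of the genes that were higher with mitoxantrone than with vehicle, and the 2 comparisons share the Mitoxantrone libraries. In limma 0 members were called (0% of all genes). At an unadjusted p under 0.05, 8 were lower and 0 higher, against 4.12% of all genes lower and 1.41% higher, and for 6 genes, CTSB, CTSD, CTSH, NPC1, ATP6AP1 and ULK1, every Combination library was below every Mitoxantrone library, against 6.11% of all genes and 3.22% the other way. CTSB had 21.1, 17.3 and 17.1 FPKM with the Combination, where replicate 1 nearly reached the lowest Mitoxantrone library. The log2 difference from mitoxantrone was -0.39 for CTSB, with a standard error of 0.10 (limma adjusted p = 0.821). CTSH had 2.84, 2.90 and 2.61 FPKM, near its vehicle level, and differed by -0.33 with a standard error of 0.09 (limma adjusted p = 0.821). NPC1 had 13.0, 11.2 and 11.6 FPKM, between vehicle and mitoxantrone in replicate 1, and differed by -0.23 with a standard error of 0.08 (limma adjusted p = 0.888). In replicates 2 and 3 alone, 8 members fell, namely CTSB, CTSD, LIPA, PSAP, NPC1, ATP6AP1, MAP1LC3B and WIPI1, against 3.51% of all genes lower and 2.62% higher. These counts depended on single libraries. Without Combination replicate 1 the 8 members at an unadjusted p under 0.05 became 13, against 6.35% of all genes lower. They became 3 without Combination replicate 2 or 3, against 3.15% and 2.33%, and 4 without Mitoxantrone replicate 2 or 3, against 1.71% and 6.32%.

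The autophagy genes differed in how the Combination libraries lay. With the Combination, MAP1LC3B was at 17.4, 16.0 and 17.7 FPKM, close to its Gilteritinib values of 16.0, 16.3 and 16.6 FPKM, and replicate 1 lay between the other two. WIPI1 was at 3.32, 1.58 and 1.44 FPKM, with replicate 1 at the level of the Mitoxantrone libraries and replicates 2 and 3 below each DMSO library. GABARAPL1 had 2.19, 0.812 and 0.404 FPKM with the Combination and 1.53, 0.744 and 0.608 FPKM with gilteritinib, replicate 1 being the highest in both.

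Gilteritinib was lower than mitoxantrone in 29 of the 35 members, with a median log2 difference of -0.17 against -0.06 over all genes. In limma 0 members were called (0% of all genes), and 12 were lower and 0 higher at an unadjusted p under 0.05, against 6.56% of all genes lower and 2.96% higher. For 15 of the 38 genes every Gilteritinib library was below every Mitoxantrone library, against 9.12% of all genes and 5.25% the other way. CTSB, at 18.5, 18.6 and 17.1 FPKM with gilteritinib, differed from mitoxantrone by -0.42 with a standard error of 0.10 (limma adjusted p = 0.240). NPC1, at 11.5, 11.1 and 10.7 FPKM, differed by -0.33 with a standard error of 0.08, and CTSH, at 2.65, 2.75 and 2.64 FPKM, by -0.37 with a standard error of 0.09 (limma adjusted p = 0.255 for each). In these genes the Gilteritinib libraries were tightly grouped and at vehicle level. In replicates 2 and 3 alone, 7 members were lower in limma, CTSB, CTSD, LIPA, PSAP, NPC1, MAP1LC3B and WIPI1, against 3.98% of all genes lower and 2.65% higher. The 12 became 7 when Gilteritinib replicate 2 or 3 was left out, against 6.97% and 4.14% of all genes lower, and 6 after median-ratio scaling of the libraries, against 5.02%. The Combination against gilteritinib gave 0 members in limma (0% of all genes). At an unadjusted p under 0.05 it gave 0, against 0.802% of all genes higher and 0.829% lower. Of the 35 members, 29 were above 0, with a median of 0.07 against 0.02 over all genes. Libraries did not overlap for CTSA and GM2A, both higher with the Combination, against 3.87% of all genes higher and 2.33% lower. GM2A, GAA and ATP6V1H had the smallest p in that comparison, with log2 differences of 0.21, 0.18 and 0.11 and standard errors of 0.13, 0.12 and 0.09. The dose of gilteritinib differs between these 2 conditions.

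The interaction, the difference of the Combination from gilteritinib less that of mitoxantrone from DMSO, asks whether mitoxantrone was followed by the same change in the presence of gilteritinib. It also holds the difference between 20 nM gilteritinib in the Combination and 25 nM alone, and the 2 cannot be told apart. In limma 0 members were called (0% of all genes), and 3 were lower at an unadjusted p under 0.05, CTSB, CTSH and CD63, against 1.48% of all genes lower and 1.43% higher. CTSB had an interaction of -0.42 on the log2 scale with a standard error of 0.14, CTSH one of -0.37 with a standard error of 0.13, and CD63 one of -0.28 with a standard error of 0.12 (limma adjusted p = 0.9997 for each). The negative sign means that the difference of the Combination from gilteritinib was smaller than that of mitoxantrone from vehicle. In replicates 2 and 3 alone, 2 members were called, CTSB at -0.53 and MAP1LC3B at -0.58 (limma adjusted p = 0.0202 and 0.0305), against 1.27% of all genes lower and 1.71% higher. Without Combination replicate 1, the 3 members at an unadjusted p under 0.05 became 10, against 2.66% of all genes lower.

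Differences that passed the adjusted test over all 12 libraries lay between replicate numbers and not between conditions. In an additive fit of condition and number, 8 members were called in limma between replicates 1 and 2, of which 7 were higher in replicate 1, against 17.3% of all genes higher and 9.49% lower. Over all genes 26.7% were called, so the members' share was near the background. The 7 were ATG5, SCARB2, LAMP2, ATP6V1B2, HEXA, ATP6V1A and CTSC, and the lower one was GUSB. Between replicates 1 and 3, 8 were called, against 33.7% of all genes (24.3% higher and 9.45% lower), with ATG5, SCARB2, HEXA, ATP6V1B2, GABARAPL1 and LAMP2 higher and GUSB and CTSS lower in replicate 1. After median-ratio scaling each of these comparisons gave 5 calls, 2 higher and 3 lower in replicate 1. Of all genes, 12.5% were higher and 13.1% lower in the first comparison, and 16% and 15.2% in the second. SCARB2 and ATG5 remained higher and GUSB lower in both, and CTSS and CTSZ were lower. Between replicates 2 and 3, 0 members were called in limma (0% of all genes), 0 had an unadjusted p under 0.05 against 4.45% of all genes, and CD63, CTSH and MCOLN1 had the smallest p, with log2 differences of 0.07, 0.08 and 0.08 and standard errors of 0.05, 0.06 and 0.07.

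GUSB, a gene often used as a reference in quantitative PCR, gave the clearest case. It was at 35.4, 35.5, 35.3 and 37.3 FPKM in replicate 1 of DMSO, Gilteritinib, Combination and Mitoxantrone, against 43.1 to 48.0 FPKM in the other 8 libraries. The means over conditions were 35.9 ± 0.960 FPKM in replicate 1, 46.1 ± 1.72 FPKM in replicate 2 and 44.7 ± 1.15 FPKM in replicate 3 (SD, n = 4). The log2 difference between replicates 1 and 2 was -0.35 with a standard error of 0.04 (limma adjusted p = 0.000772), and between replicates 1 and 3 it was -0.31 with a standard error of 0.04 (limma adjusted p = 0.00103). Within a replicate number the 4 conditions were nearly the same for GUSB.

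ATG5 and SCARB2 moved the other way. ATG5 was at 20.7, 21.5, 19.8 and 17.2 FPKM in replicate 1 of DMSO, Gilteritinib, Combination and Mitoxantrone, and at 14.5 to 17.0 FPKM elsewhere. The log2 difference of ATG5 from replicate 2 was 0.33 with a standard error of 0.05 (limma adjusted p = 0.00382). SCARB2 was at 6.73, 7.55, 9.49 and 8.56 FPKM in those replicate 1 libraries and at 4.87 to 5.82 FPKM elsewhere, a log2 difference from replicate 2 of 0.48 with a standard error of 0.09 (limma adjusted p = 0.00619). From replicate 3, ATG5 differed by 0.32 and SCARB2 by 0.47 (limma adjusted p = 0.00369 and 0.00539). For both genes the replicate 1 libraries lay wholly above the rest, although their own spread was wider. Lysozyme, the most abundant myeloid marker, was at 929.7, 1176, 1333 and 686.5 FPKM in replicate 1 of Mitoxantrone, Gilteritinib, Combination and DMSO and at 490.4 to 596.1 FPKM in the other libraries, and its part in these differences was not tested.

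**Figure D5:**
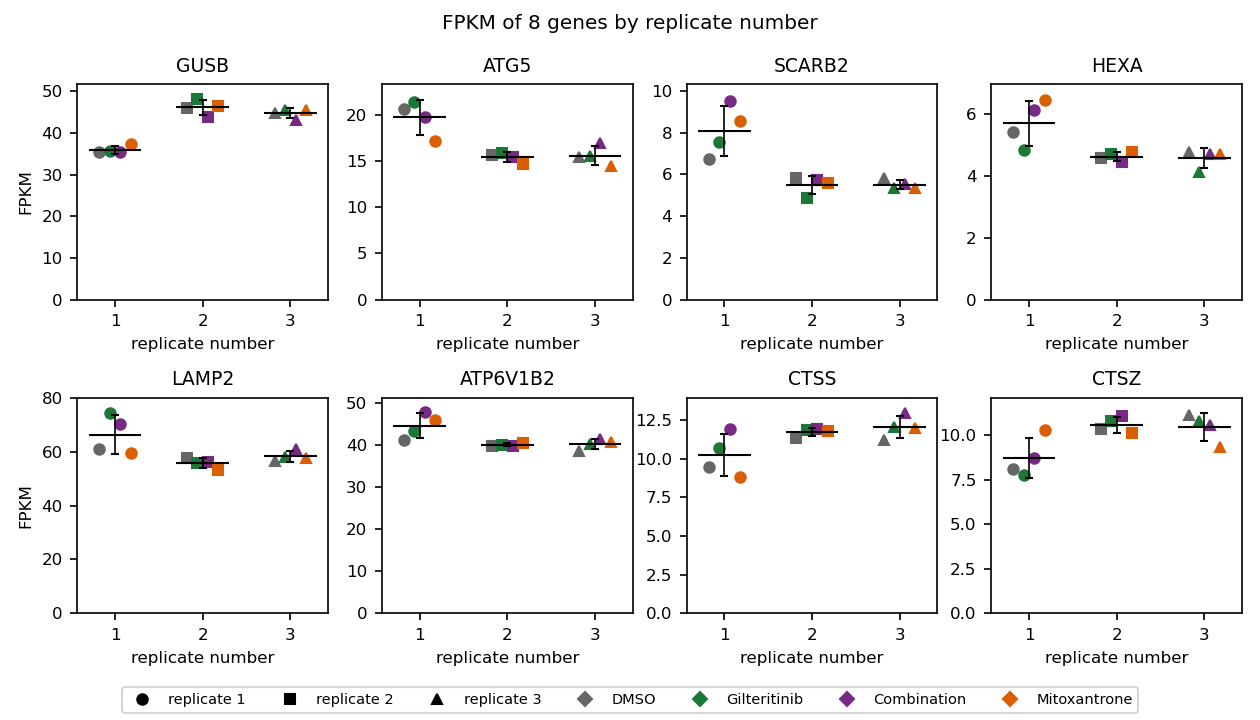
FPKM (vertical axes, from 0) of 8 genes by replicate number (horizontal axes), with 1 symbol per library coloured by condition, a line at the mean of 4 libraries and error bars of 1 SD. GUSB lies at 35.3 to 37.3 FPKM in replicate 1 and at 43.1 to 48.0 FPKM in replicates 2 and 3, whereas ATG5, SCARB2 and, with a wider spread, HEXA, LAMP2 and ATP6V1B2 lie higher in replicate 1.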

How the data were processed

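The authors deposited 1 table of FPKM per gene for the 12 libraries, none of whose sample columns was left out. Per the labels, total RNA was extracted with a miRNeasy kit (the study's methods name TRIzol), mRNA was amplified by Geo-seq and libraries were built with TruePrep. The submitters' processing notes name Bowtie 0.12.9, Cufflinks 2.1.1, HTSeq, DESeq2 and the mouse build mm10, although the identifiers are human, and give no order of steps, so the deposited FPKM cannot be traced to a stated human annotation. Positions and exon lengths came from GENCODE release 29 (GRCh38).

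Values were used as log2(FPKM + 1), which understates the fold changes of low genes. A gene was tested if 3 or more libraries reached 1 FPKM, which left 18574 genes. These were fitted in limma 3.58.1 (R 4.3.3) over the 12 libraries together, with a mean for each condition, a trend of the variance on the mean and Benjamini-Hochberg adjustment over all genes in each comparison, at an adjusted p of 0.05. Replicate numbers were compared in an additive fit with condition. The procedure was tested on simulated data. Depth was recovered from the steps of low FPKM values, of which 78.1% to 80.2% were whole within 0.05 of a fragment, and counting intervals cover counting error only.

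A test was given for the 3 members with the smallest p in each comparison and for 2 other pathway genes in each comparison with DMSO. Some genes that this rule or the marker lists hold are not reported here. MAP1LC3B and the members named for their calls under another setting were chosen after their values were seen. The members and gene lists were chosen with earlier results of these data known. Same-numbered libraries deviated together, with correlations of 0.165 to 0.657 in 18 of 18 pairs of libraries. Pairs with different numbers had correlations of -0.562 to 0.434, which overlap that range, so whether the numbers pair the samples was not settled. A fit with the number as a block was among the alternatives. The others were a pseudocount of 0.1, no filter, median-ratio scaling, a minimum of 5 on the mean FPKM, no trend, only the 6 libraries compared, each library left out in turn, and replicates 2 and 3 only. Figures were drawn with matplotlib 3.10.9.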

Additional observations from a re-analysis of the deposited data

How the results depend on the processing

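Members called in limma numbered 0 in each comparison of conditions and in the interaction under a pseudocount of 0.1, no filter, median-ratio scaling, a minimum of 5 on the mean FPKM, no trend and, where it could be fitted, the 6 libraries compared alone. With the replicate number as a block, the count was likewise 0 in each. Over all genes, the block moved the calls from 1 to 0 for the Combination against DMSO, and from 0 to 2 and 0 to 5 lower genes for the Combination and gilteritinib against mitoxantrone. In those last comparisons, members at an unadjusted p under 0.05 went from 8 to 10 and from 12 to 13 lower and from 0 to 1 higher in each, while the share of all genes lower went from 4.12% to 8.58% and from 6.56% to 12.5%. With replicates 2 and 3 only, the counts were 8 for mitoxantrone against DMSO, 8 for the Combination and 7 for gilteritinib against mitoxantrone, and 2 for the interaction. When each library was left out in turn, mitoxantrone against DMSO gave 0 to 1 members, the 1 arising without Mitoxantrone replicate 1. That member was MAP1LC3B, which lay within the DMSO range in the library left out.

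Calls between replicate numbers depended more on the settings. For replicates 1 and 2 the 8 members became 5 after median-ratio scaling and 5 with no trend, and 3 to 7 when a library was left out, with 3 without Combination replicate 2, 4 without Mitoxantrone 2, Gilteritinib 2, Gilteritinib 3, Combination 1, Combination 3 or DMSO 3, and 5 without Gilteritinib 1. Of all genes, 12.5% were higher and 13.1% lower in replicate 1 after scaling, and 17.1% and 8.87% with no trend. With a library left out, these shares were 9.07% to 16.7% and 5.6% to 10.7%. For replicates 1 and 3 the 8 became 5 after median-ratio scaling and 3 to 10 when a library was left out, with 3 without Gilteritinib 3 or Combination 3, 4 without Combination 1 and 5 without DMSO 3. Of all genes, 16% were higher and 15.2% lower in replicate 1 after scaling. With a library left out, these shares were 14.4% to 23.7% and 5.59% to 10.4%. The causes were not tested.

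Median-ratio scaling moved the members lower at an unadjusted p under 0.05 from 12 to 6 for gilteritinib and from 8 to 5 for the Combination against mitoxantrone. No named fold change reversed. Of 684 refits of named genes, 674 stayed on the same side of the threshold and 10 passed it with replicates 2 and 3 only. The members' median for mitoxantrone against DMSO ranged from 0.13 to 0.25 over the alternatives. CTSL and NEU1 rest on at most 28.3 fragments a library, which limits what could be seen of them.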
